A study of Mus musculus with 27 samples.

Results

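The levels of 8 neutrophil genes were followed in mouse lung: S100a8, S100a9, Csf3r, Ltf, Lcn2, Ngp, Camp and Mmp8. They were chosen by symbol, as genes known from neutrophils, with earlier results of these data known. They are 8 of the 20239 named genes on the array. RNA from the right lung of 27 female mice aged 11 weeks was hybridised to Affymetrix Mouse Gene 1.0 ST arrays, 1 mouse per array, with 3 mice from each of 9 inbred strains. The labels name no treatment or transgene and call every lung normal. Each strain carries a class for how severe and a class for how frequent its spontaneous pulmonary adenomas are. Both are labelled increased in A/J, DBA/2J and C57BL/6J, and both decreased in MRL/MpJ and KK/HlJ. The labels of 129S1/SvlmJ, C57L/J, C3H/HeJ and BALB/cJ give increased severity but decreased frequency. The study asked which genes differ between strains, in 36 pairs, and whether they follow these classes.

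Neutrophils are short-lived phagocytes made in the bone marrow under the growth factor G-CSF, and the lung capillaries hold a standing pool of them. Their proteins are laid down in waves as the cell matures: the primary (azurophil) granules first, then the specific and gelatinase granules, while other products stay in the cytosol. Ltf (lactoferrin, which binds iron), Lcn2 (lipocalin 2, which binds bacterial siderophores), Camp (the cathelicidin precursor) and Ngp (neutrophilic granule protein) belong to the specific granules, and Mmp8 is the neutrophil collagenase. S100a8 and S100a9 are the subunits of calprotectin, an abundant cytosolic calcium-binding complex, and Csf3r is the G-CSF receptor at the cell surface, so the name granule genes covers only 5 of the 8. Ltf and Lcn2 are also made by airway epithelium.

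The promoters are shown for 5 of the 8 members: S100a8, S100a9, Ngp, Ltf and Lcn2. Those of Csf3r, Camp and Mmp8 are not shown. The sequences come from RefSeq (GRCm38.p6, the C57BL/6J reference), run 5′ to 3′ on the gene's strand and end at the base before the annotated start. All 8 members had an entry. Capitals mark matches to a C/EBP core, TTNNGNAA or its reverse complement TTNCNNAA, since C/EBP factors are known regulators of granulocyte genes.
S100a8 (chr3:90668821-90669070, plus strand): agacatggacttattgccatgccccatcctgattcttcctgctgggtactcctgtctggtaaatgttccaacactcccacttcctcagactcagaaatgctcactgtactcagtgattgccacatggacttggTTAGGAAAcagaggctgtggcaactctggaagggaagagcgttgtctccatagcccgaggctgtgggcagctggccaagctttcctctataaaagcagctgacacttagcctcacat
S100a9 (chr3:90695722-90695971, minus strand): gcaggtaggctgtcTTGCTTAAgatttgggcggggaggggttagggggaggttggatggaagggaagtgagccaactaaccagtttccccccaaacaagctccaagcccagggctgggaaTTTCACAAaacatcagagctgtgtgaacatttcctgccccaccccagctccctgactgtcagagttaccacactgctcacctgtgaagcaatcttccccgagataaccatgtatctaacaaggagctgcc
Ltf (chr9:111019042-111019291, plus strand): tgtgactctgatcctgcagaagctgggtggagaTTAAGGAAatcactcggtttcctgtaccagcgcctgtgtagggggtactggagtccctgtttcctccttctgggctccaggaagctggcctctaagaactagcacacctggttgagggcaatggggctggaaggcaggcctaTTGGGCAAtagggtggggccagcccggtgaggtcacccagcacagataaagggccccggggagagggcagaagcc
Lcn2 (chr2:32387740-32387989, minus strand): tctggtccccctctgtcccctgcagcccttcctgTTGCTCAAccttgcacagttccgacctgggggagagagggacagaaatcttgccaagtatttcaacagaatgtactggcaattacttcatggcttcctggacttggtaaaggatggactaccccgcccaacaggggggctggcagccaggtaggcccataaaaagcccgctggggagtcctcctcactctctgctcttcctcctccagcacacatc
Ngp (chr9:110419558-110419807, plus strand): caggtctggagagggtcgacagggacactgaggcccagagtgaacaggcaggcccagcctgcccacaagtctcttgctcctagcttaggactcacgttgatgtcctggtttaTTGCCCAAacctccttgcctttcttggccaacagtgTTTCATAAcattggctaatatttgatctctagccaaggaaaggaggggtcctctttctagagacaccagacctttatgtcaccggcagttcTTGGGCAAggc
The C/EBP core was found in 6 of the 8 member promoters and in 36.8% of all 32851 promoters of this length. Ngp held 3 matches, S100a9, Ltf and Mmp8 2 each, S100a8 and Lcn2 1 each, and Camp and Csf3r none in this window. A second motif was the PU.1 core GAGGAA or its reverse complement TTCCTC. It was found in 5 of 8 (S100a8, Ltf, Mmp8, Lcn2 and Csf3r) and in 23.3% of all promoters. The 2 motifs can share bases, but 0 of the members' matches did. These matches describe letters in the reference and say nothing of binding. S100a8 and S100a9 are next to each other on chromosome 3, and Mmp8 lies between Mmp10 and Mmp27 on chromosome 9. Ltf, Camp and Ngp are on chromosome 9 too, each with other protein-coding neighbours.

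All values are log2 signals of 1 probe set per gene, named by its Entrez ID (20201 for S100a8, 20202 for S100a9, 12986 for Csf3r, 17002 for Ltf, 16819 for Lcn2, 18054 for Ngp, 12796 for Camp and 17394 for Mmp8). Array medians were between 6.24 and 6.37, and 2 arrays of a strain correlated at 0.984 to 0.997 against 0.976 to 0.993 for arrays of different strains. Array run numbers in the labels follow the strains, so run order and strain cannot be told apart. The signal also depends on how well the probes match each strain's own sequence, which was not tested. Over the 7 measured Y-linked genes, which female mice lack, strain means lay between 2.50 and 5.25, with every mean above 3.56 from Sry. One array stood apart in the skeletal muscle genes: C3H/HeJ replicate 2 had a mean of 9.18 over the 8 genes of that list, against 5.04 to 5.51 in the other 26 arrays. Acta1, the skeletal muscle actin, read 6.53, 11.56 and 6.29 in the 3 C3H/HeJ mice, and Ckm, the muscle creatine kinase, 7.60, 10.81 and 7.30. Without that array the members gave 35 pair calls and 15 strain calls, as with it, and Camp joined the genes past the F test below (adjusted p = 0.0485), which made 8. In whole lung, fewer neutrophils and less RNA per neutrophil cannot be told apart.

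Most of the members differed between strains. In the limma moderated F test over the 9 strains, 7 of 8 passed an adjusted p of 0.05, beside 28.9% of all named genes. The members were chosen with earlier results of these data known, so such shares describe them and do not test the set. Adjusted p was 7.03e-06 for Lcn2, 6.95e-05 for Ltf, 0.000106 for S100a8, 0.000418 for S100a9, 0.000725 for Mmp8, 0.0050 for Csf3r and 0.0238 for Ngp. Camp missed the threshold at 0.0604. The ratio of the highest to the lowest strain mean was 5.84 for Ltf, 3.21 for S100a8, 2.89 for S100a9, 2.73 for Ngp, 2.26 for Lcn2, 2.12 for Csf3r, 1.98 for Mmp8 and 1.69 for Camp.

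Pairs of strains were called at an adjusted p under 0.05 and a log2 difference of at least 1. Members made 35 calls over 8 genes and 36 pairs, 12.2% of those possible, beside 0.655% over all genes and pairs. The members also varied much within strains, with SDs at percentiles 69.1 (Lcn2) to 99.2 (Ngp) of all named genes. What this adds to their share of calls was not tested. Of the 35 calls, 27 were in the 15 pairs that hold 129S1/SvlmJ or A/J. Over all genes, 71 to 173 were called per pair in those 15 and 79 to 199 in the other pairs. By gene there were 12 calls for Ltf, 11 for S100a8, 5 for S100a9, 3 each for Ngp and Csf3r, 1 for Lcn2 and 0 for Camp and Mmp8. The 4 pairs with 3 or more members called were 129S1/SvlmJ against MRL/MpJ (4 members, 0.702% of all genes), 129S1/SvlmJ against C57BL/6J (3 members, 0.83%), A/J against BALB/cJ (3 members, 0.351%) and A/J against MRL/MpJ (3 members, 0.593%). In each of them every called member was lower in 129S1/SvlmJ or A/J.

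**Figure D1:**
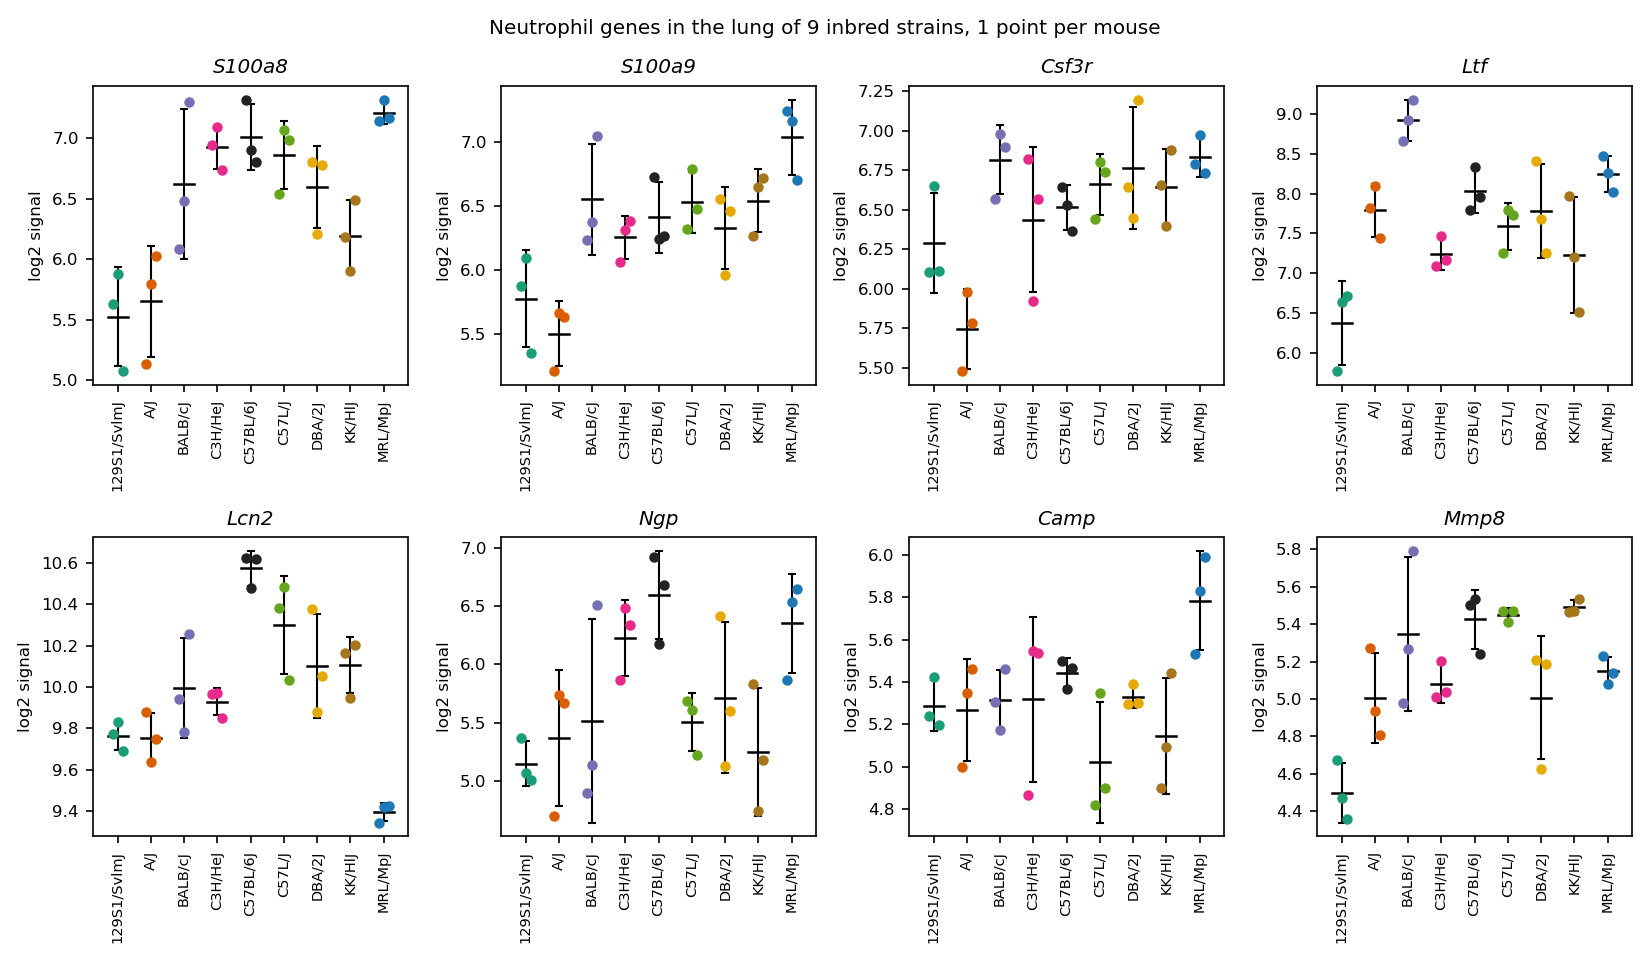
Log2 signal (y axis) of the 8 neutrophil genes in each mouse, by strain (x axis). Points are single mice, the long bars the strain means and the error bars 1 SD (n = 3). S100a8 and S100a9 are lowest in 129S1/SvlmJ and A/J and highest in MRL/MpJ, Ltf is lowest in 129S1/SvlmJ and highest in BALB/cJ, and Lcn2 is highest in C57BL/6J and lowest in MRL/MpJ.

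The calprotectin genes were low in 129S1/SvlmJ and A/J and high in MRL/MpJ. S100a8 read 5.63, 5.87 and 5.08 in the 3 129S1/SvlmJ mice and 5.14, 5.79 and 6.02 in the A/J mice. In MRL/MpJ it read 7.14, 7.32 and 7.17. The 3 MRL/MpJ mice were the most alike of any strain for this gene, and only BALB/cJ replicate 3 (7.30) and C57BL/6J replicate 1 (7.31) reached their range. In the other strains S100a8 read 6.08, 6.48 and 7.30 in BALB/cJ, 6.94, 7.09 and 6.74 in C3H/HeJ and 7.31, 6.90 and 6.80 in C57BL/6J. It read 6.54, 7.06 and 6.98 in C57L/J, 6.80, 6.20 and 6.78 in DBA/2J and 6.19, 5.90 and 6.49 in KK/HlJ. Of these 18 mice, only KK/HlJ replicate 2 fell among the A/J values and none fell among those of 129S1/SvlmJ.

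Each strain was then set against the mean of the other 8, contrasts that share arrays. S100a8 was 1.11 ± 0.20 (SE) log2 units lower in 129S1/SvlmJ (adjusted p = 0.000652) and 0.97 ± 0.20 lower in A/J (adjusted p = 0.00331), and 0.79 ± 0.20 higher in MRL/MpJ (adjusted p = 0.0116). The A/J call was lost without A/J replicate 1 (adjusted p = 0.0900) and the MRL/MpJ call without MRL/MpJ replicate 2 or 3 (up to 0.0573).

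S100a9 was low and high in the same 3 strains. It read 5.21, 5.67 and 5.63 in A/J, 5.88, 6.10 and 5.36 in 129S1/SvlmJ and 7.24, 7.17 and 6.70 in MRL/MpJ. The other 18 mice lay between 5.96 and 7.04, so A/J overlapped only with 129S1/SvlmJ. The difference from the other strains was -0.92 ± 0.17 in A/J (adjusted p = 0.000911), -0.62 ± 0.17 in 129S1/SvlmJ (adjusted p = 0.0193) and 0.80 ± 0.17 in MRL/MpJ (adjusted p = 0.00277). The 129S1/SvlmJ call was lost without replicate 1 or 3 of that strain (adjusted p up to 0.247).

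Csf3r was called in A/J and in no other strain. The 3 A/J mice read 5.48, 5.98 and 5.78, and only C3H/HeJ replicate 2 (5.92) fell among them. The other 23 mice lay between 6.10 and 7.20. The A/J difference was -0.87 ± 0.16 (adjusted p = 0.000868), or -0.91 without that array, and that of 129S1/SvlmJ was -0.26 ± 0.16 and was not called (adjusted p = 0.337). Between strains the largest called differences were all against A/J: -1.09 ± 0.21 for MRL/MpJ, -1.07 ± 0.21 for BALB/cJ and -1.02 ± 0.21 for DBA/2J.

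Among the specific granule genes, Ltf spread most. It read 5.77, 6.64 and 6.72 in 129S1/SvlmJ and 8.66, 8.92 and 9.18 in BALB/cJ, while MRL/MpJ read 8.48, 8.26 and 8.03. All 3 BALB/cJ mice stood above the other 24 mice, and of those outside 129S1/SvlmJ only KK/HlJ replicate 3 (6.51) came down to the 129S1/SvlmJ values. A/J read 7.83, 8.10 and 7.44, C57BL/6J 7.79, 8.34 and 7.96, and DBA/2J 8.42, 7.68 and 7.25. C57L/J read 7.25, 7.79 and 7.73, C3H/HeJ 7.08, 7.46 and 7.16, and KK/HlJ 7.97, 7.21 and 6.51. A/J, which was low for S100a8, S100a9 and Csf3r, was thus in the middle for Ltf, with a difference from the other strains of 0.11 ± 0.23. Ltf was -1.48 ± 0.23 in 129S1/SvlmJ (adjusted p = 0.000154) and 1.39 ± 0.23 in BALB/cJ (adjusted p = 0.00047), and both calls held without any single array. The MRL/MpJ difference of 0.63 ± 0.23 was not called (adjusted p = 0.0749).

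Lcn2 ran the other way in MRL/MpJ. It read 10.62, 10.48 and 10.62 in C57BL/6J and 9.35, 9.42 and 9.43 in MRL/MpJ, where every mouse was below all 24 others. It read 10.38, 10.48 and 10.03 in C57L/J, 10.37, 9.88 and 10.05 in DBA/2J and 10.16, 9.95 and 10.20 in KK/HlJ. BALB/cJ read 9.94, 9.78 and 10.26, C3H/HeJ 9.97, 9.97 and 9.85, A/J 9.88, 9.64 and 9.75 and 129S1/SvlmJ 9.77, 9.83 and 9.69. MRL/MpJ therefore held the highest mean of S100a8, S100a9, Csf3r and Camp and the lowest of Lcn2. The Lcn2 difference was 0.65 ± 0.09 in C57BL/6J (adjusted p = 4.19e-05), 0.35 ± 0.09 in C57L/J (adjusted p = 0.0238) and -0.67 ± 0.09 in MRL/MpJ (adjusted p = 4.33e-05). The C57L/J call was lost without replicate 1 or 2 of that strain (adjusted p up to 0.207), and the other 2 held without any single array.

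Ngp was high in C57BL/6J, at 6.92, 6.18 and 6.68, and in MRL/MpJ, at 5.87, 6.54 and 6.65. It read 5.37, 5.07 and 5.004 in 129S1/SvlmJ. It had the widest spread within strains of the 8 (SD 0.51), and BALB/cJ alone ran from 4.89 to 6.51. The C57BL/6J difference was 0.96 ± 0.28 (adjusted p = 0.0354) and was lost when any of the 3 C57BL/6J mice was left out (adjusted p up to 0.226). Ngp in MRL/MpJ differed by 0.69 ± 0.28 and was not called (adjusted p = 0.109). The F test of Ngp rested on C57BL/6J as well: without its replicate 1 or 3, adjusted p rose to at most 0.0642.

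Camp lay between 4.82 and 5.99 in all 27 mice and was highest in MRL/MpJ, at 5.53, 5.83 and 5.99. C3H/HeJ replicates 2 and 3 (5.55 and 5.54) overlapped with them. The MRL/MpJ difference was 0.52 ± 0.13 (adjusted p = 0.0104), and it was lost without MRL/MpJ replicate 3 (adjusted p = 0.123). Mmp8 was lowest in 129S1/SvlmJ, at 4.67, 4.47 and 4.36, with 1 other mouse (DBA/2J replicate 2, 4.63) in that range. Its 129S1/SvlmJ difference was -0.74 ± 0.12 (adjusted p = 0.000237) and held without any single array. Mmp8 read 5.46, 5.47 and 5.53 in KK/HlJ, the highest mean, with a difference of 0.37 ± 0.12 that was not called (adjusted p = 0.0683).

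**Figure D2:**
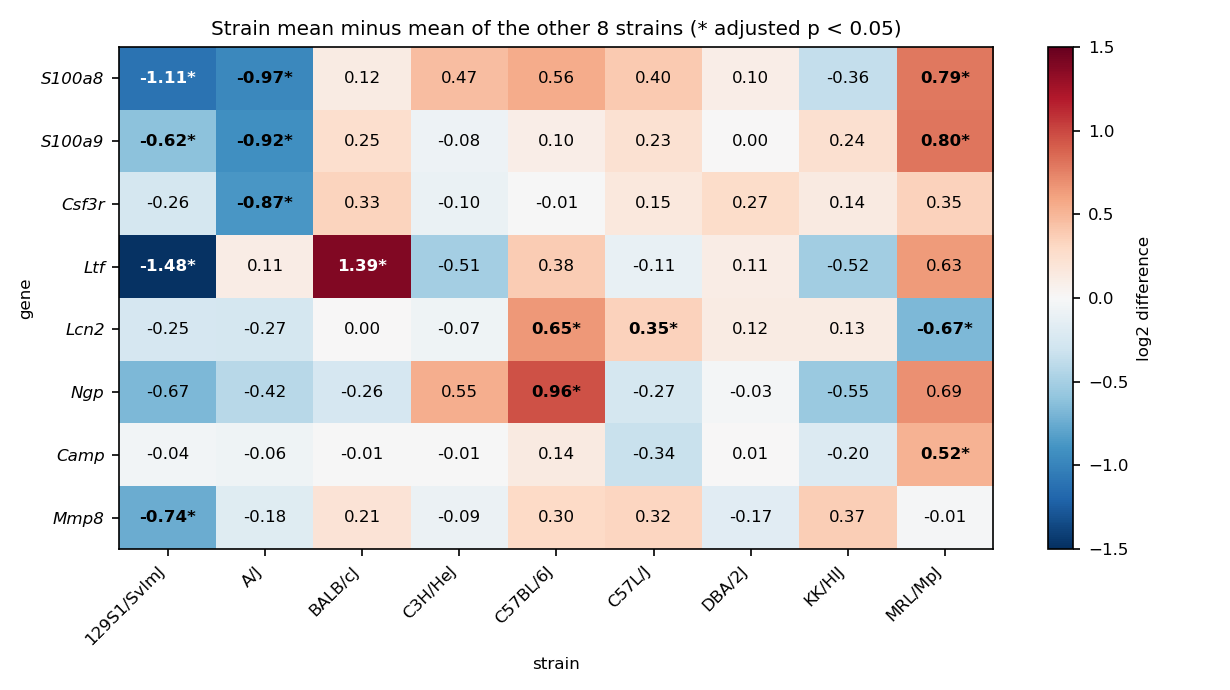
Log2 difference between each strain mean (columns) and the mean of the other 8 strains for the 8 genes (rows), in red where the strain is higher and in blue where it is lower. A star marks a limma adjusted p under 0.05. The 15 starred cells fall in 6 strains, and MRL/MpJ is the only strain with starred cells of both signs.

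Over all members and strains, 15 of 72 such differences were called, 7 higher and 8 lower. 129S1/SvlmJ had 4 members lower and 0 higher, where 6.43% of all genes were lower and 3.54% higher. A/J had 3 lower and 0 higher (3.75% and 1.96% of all genes). MRL/MpJ had 3 higher and 1 lower (6.83% and 5.61%), and C57BL/6J had 2 higher and 0 lower (4.06% and 4.11%). BALB/cJ and C57L/J had 1 higher each (2.48% and 3.69%). No member was called in C3H/HeJ, DBA/2J or KK/HlJ, where 7.26%, 4.81% and 7.38% of all genes were called in either direction. The median difference over the 8 members was -0.64 in 129S1/SvlmJ, -0.34 in A/J, 0.34 in C57BL/6J and 0.58 in MRL/MpJ, beside -0.01, -0.03, -0.05 and 0.04 over all named genes. When the strains were ordered by mean, 0 of the 8 steps between neighbours passed an adjusted p of 0.05 for any of the 8 genes, so only strains farther apart in an order were told apart.

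The members did not rank the strains alike. Over the 9 strain means, 26 of the 28 member pairs correlated above 0, with a median Pearson r of 0.404, which was 0.24 without 129S1/SvlmJ. S100a9 and Csf3r were the closest pair, with r = 0.898 (two-sided exact permutation p = 0.000499, 0.014 after Benjamini-Hochberg adjustment over 28 pairs) and Spearman rho = 0.883 (exact p = 0.00308, adjusted 0.0431). Without A/J and 129S1/SvlmJ, the 2 strains farthest from the median of S100a9, r was 0.647. S100a8 and S100a9, whose products form 1 complex, had r = 0.826 (exact p = 0.0071, adjusted 0.0994) and rho = 0.567, and r fell to 0.348 without the same 2 strains, so the relation across strains rested on them. S100a8 and Ngp had r = 0.803 (exact p = 0.0123, adjusted 0.115) and rho = 0.90 (adjusted exact p = 0.0431), with r = 0.828 without those strains. Lcn2 and Camp had the lowest value, r = -0.515 (exact p = 0.152, adjusted 0.387), and the 7 pairs with Lcn2 had a median of 0.136.

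Mice of 1 strain share their genotype, so the same correlations were taken over the 27 mice after each strain's mean was removed, as a description in which pairs share their arrays. S100a8 and S100a9 gave 0.806 here, the highest of the 28. S100a8 and Ngp gave 0.673, Lcn2 and Ngp 0.602 and S100a8 and Csf3r 0.526. Lcn2, which ranked the strains differently, had a median of 0.393 over its 7 pairs within strains, with the lowest values for Csf3r (0.0285) and Ltf (0.133). Ltf did the reverse: its 7 pairs had a median of 0.0269, and its correlation with S100a8 was 0.536 across strains and 0.0269 within them. In BALB/cJ, replicate 3 was above the strain's mean in all 8 genes, by 0.42 log2 units on average, and replicate 1 was below it in all 8, with an average deviation of -0.30. Without this strain, an alternative chosen after seeing the data, the median over the 28 pairs fell from 0.387 to 0.163. S100a8 and S100a9 then gave 0.743, S100a8 and Ngp 0.522, S100a8 and Csf3r 0.552 and Lcn2 and Ngp 0.488. S100a8 and Mmp8 went from 0.479 to 0.172, and Mmp8 and Ngp from 0.401 to 0.0689.

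**Figure D3:**
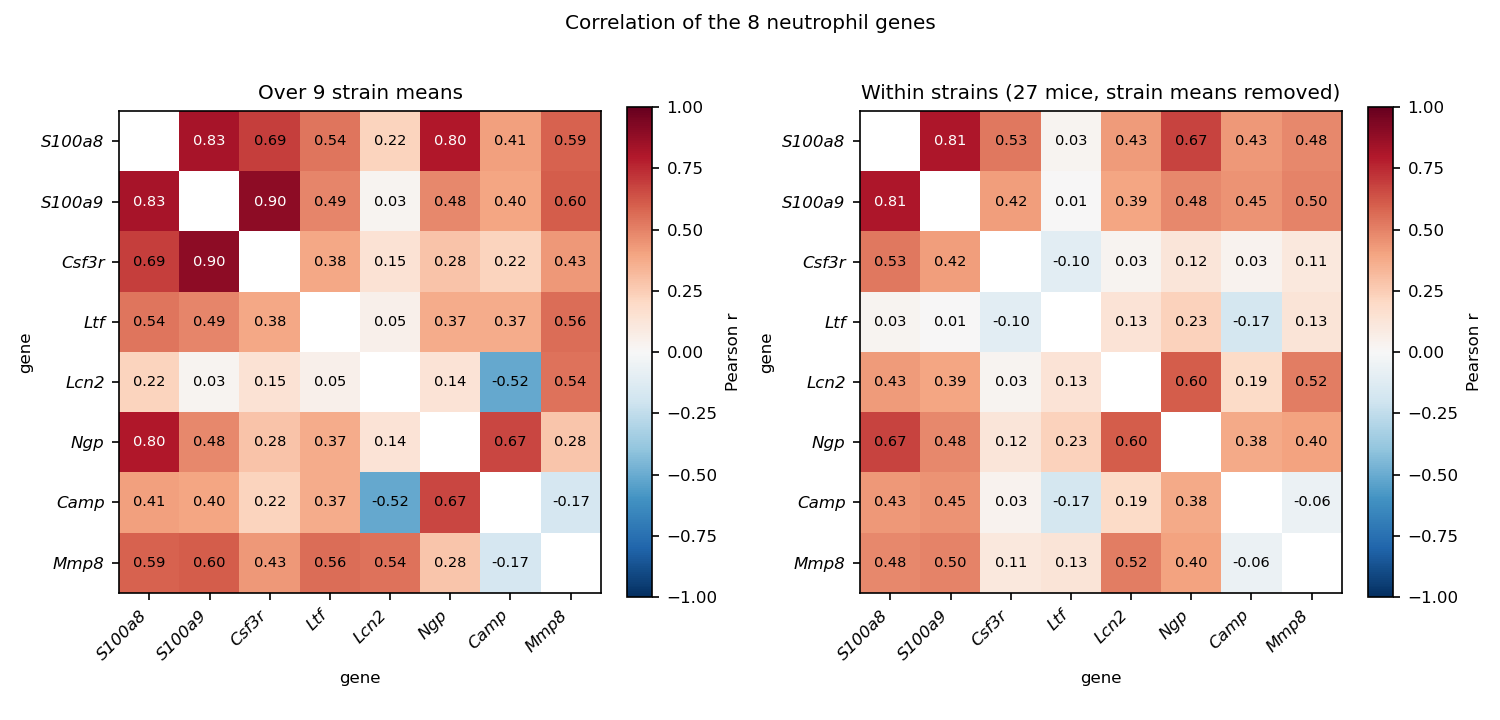
Pearson r between the 8 neutrophil genes (rows and columns), over the 9 strain means (left) and over the 27 mice with the strain means removed (right). S100a8 with S100a9 is high in both panels (0.826 and 0.806), Lcn2 is low on the left with all genes but Mmp8 (0.542), and Ltf lies between -0.175 and 0.234 on the right.

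The genes most like each member over the 27 arrays were listed without a test, since the arrays share strain and mouse. For Csf3r they were Cxcr2 (r = 0.872), the receptor for neutrophil-attracting chemokines, Il1b (0.863), the cytokine interleukin-1 beta, Slfn4 (0.791), Sh3bp5 (0.784) and Itga4 (0.77), an integrin subunit of leukocytes. Within strains Csf3r and Cxcr2 still had r = 0.779. S100a9 had Cxcr2 (0.759) and Il1b (0.752) as its first 2, followed by Nkg7, Cd300lb and Vmn1r52. The mean signal of Vmn1r52 was 2.50, at the low end of the Y-linked genes. S100a8 had Tm6sf1 (0.807), Nkg7 (0.774), a granule protein of cytotoxic lymphocytes, Rac2 (0.768), a GTPase of blood cells, Cd101 (0.763) and Cxcr2 (0.758). All 5 of the Csf3r genes and all 5 of the S100a8 genes had their lowest strain mean in A/J. They were picked for their correlation with members that were themselves low in A/J, so this adds no separate evidence.

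Of the 5 genes most like Ltf, Scgb3a1 and Bpifa1 are in the airway secretory list. The closest gene was Scgb3a1 (r = 0.84), a secretoglobin of airway secretory cells, followed by A2ml1 (0.775), a protease inhibitor, Bpifa1 (0.773), a secreted airway defence protein, Add3 (0.725) and Adam23 (0.716). With the strain means removed, Ltf had r = 0.908 with Scgb3a1 and 0.866 with Bpifa1, against 0.000372 with Add3. Without BALB/cJ the first 2 values were 0.91 and 0.884. The mouse-to-mouse spread in KK/HlJ shows this: Ltf read 7.97, 7.21 and 6.51 where Scgb3a1 read 9.06, 7.95 and 7.43. In 129S1/SvlmJ, Ltf read 5.77, 6.64 and 6.72 where Scgb3a1 read 7.45, 8.96 and 8.30. Bpifa1, like Ltf, had its lowest strain mean in 129S1/SvlmJ (6.84 ± 0.49, SD, n = 3) and its highest in BALB/cJ (10.85 ± 0.47), but it was picked for its correlation with Ltf. The 11 genes of the airway list did not move one way in BALB/cJ: Bpifa1 was higher by 1.34 (adjusted p = 0.00504) and Tff2 by 0.52 (adjusted p = 0.0447), while Bpifb1 was at -1.33 (adjusted p = 0.000529) and Scgb3a2 at -0.56 (adjusted p = 0.000185). Scgb3a1 differed there by 0.71 and was not called (adjusted p = 0.136), and the list's level was 8.94 to 9.34.

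Lcn2 had Prmt8 (0.845), an arginine methyltransferase, Snx1 (0.838), a sorting nexin, Asah1 (0.822), the acid ceramidase, Fcgr3 (0.818), an IgG receptor of myeloid cells, and Cyrib (0.792). Prmt8 had r = 0.932 with Lcn2 over strain means and 0.255 within strains, so the likeness was mostly between strains. Ngp had Rhag (0.769), a red-cell membrane protein, Prg2 (0.746), the eosinophil major basic protein, Cd14 (0.699), the lipopolysaccharide co-receptor, H1f5 (0.678) and Nek2 (0.669), a mitotic kinase. The mean signal of Rhag was 3.09, below the median Y-linked gene (3.13), so its likeness to Ngp lies at background level. Camp had Atf5 (0.785), Akp3 (0.744), Lst1 (0.744), Amigo3 (0.739) and Rhd (0.739), and Mmp8 had Adamts6 (0.76), Otulinl (0.755), Dock11 (0.751), Enpp5 (0.748) and Cdk17 (0.733). The mean of the 8 members was most like Nkg7 (0.777), Rhoc (0.769), Ccl5 (0.742), Tm6sf1 (0.71), Cd101 (0.708), Gzma (0.704), Klri2 (0.695), Top2a (0.689), Psmb9 (0.683) and Enpp5 (0.681), of which Nkg7, Ccl5 and Gzma are known from cytotoxic lymphocytes. Over strain means, Nkg7, Ccl5 and Gzma had r of 0.863, 0.841 and 0.803 with this mean, against 0.405, 0.395 and 0.193 within strains. Of the genes listed for it, Rhoc had the highest r within strains (0.718) and Enpp5 the lowest (-0.0468). Klri2 had a mean signal of 3.52, within the Y-linked strain means without Sry (up to 3.56).

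**Figure D4:**
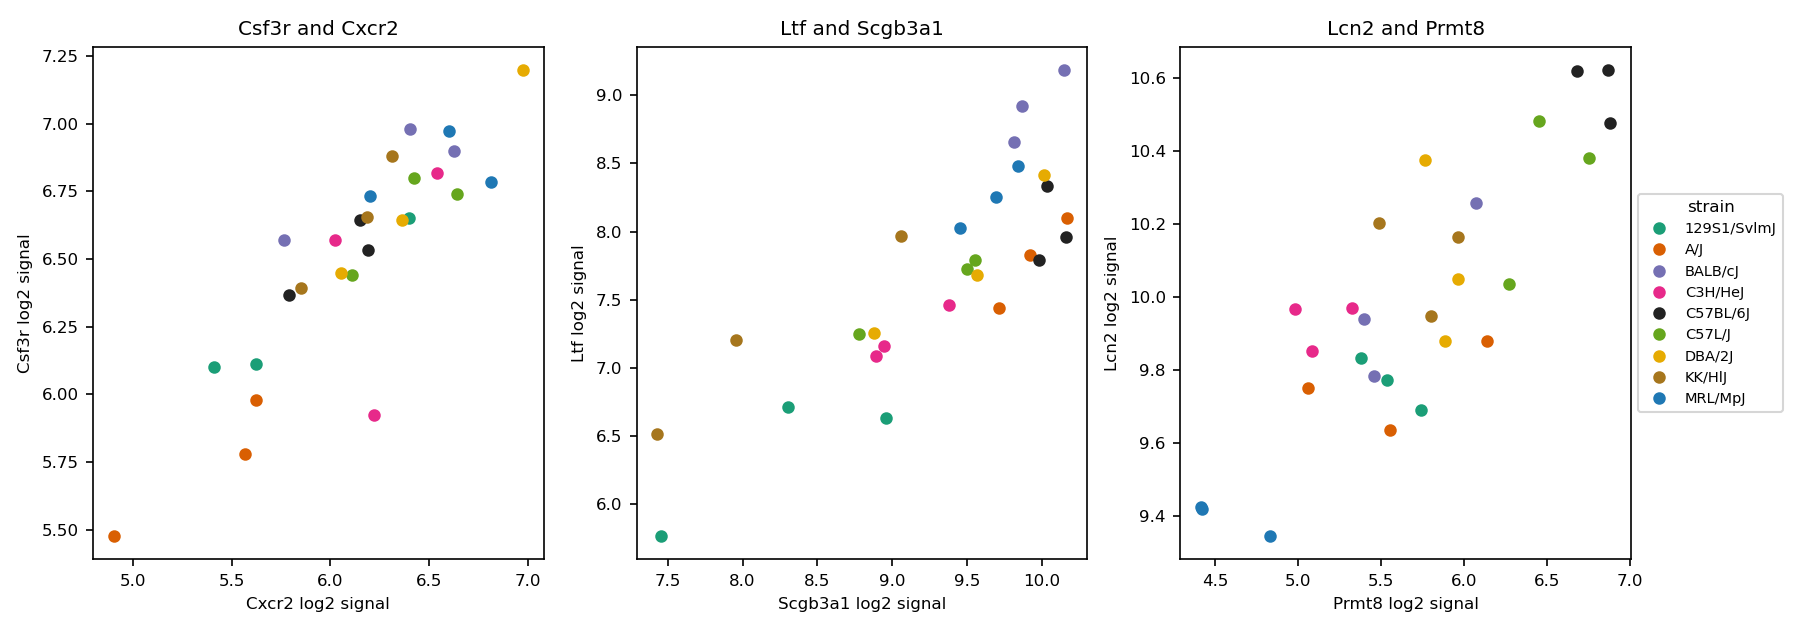
Log2 signal of 3 members (y axes) against that of the gene most like each over the 27 arrays (x axes), 1 point per mouse, coloured by strain. Csf3r follows Cxcr2 (r = 0.872) and Ltf follows Scgb3a1 (r = 0.84) between and within strains, whereas Lcn2 follows Prmt8 (r = 0.845) mainly between strains.

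Other neutrophil genes behaved unevenly. None of the 6 azurophil granule genes (among them Mpo, Elane, Prtn3 and Ctsg) and none of the 3 measured stefin A genes passed the F test, and their signals were low, with a median of 4.40 and 3.31. Of 13 other specific and gelatinase granule genes, 9 passed (69.2%, beside 28.9% of all genes). Lyz1, lysozyme 1, had 4 pairs called, with its lowest mean in MRL/MpJ (11.62) and its highest in BALB/cJ. Pglyrp1, a peptidoglycan-binding granule protein, Slpi, a protease inhibitor, and Mcemp1 passed with 0 or 1 pair. The mean signal of Lyz1 was 12.18, above the median of 11.49 for the list of lung epithelial and endothelial markers. Which lung cells gave the signals of these 13 genes was not tested. Of 24 measured genes of mature neutrophils, 19 passed (79.2%). A/J had 11 of these 24 lower and 2 higher (3.75% and 1.96% of all genes). Among the lower were Il1b at -1.13 (adjusted p = 6.71e-05), Slfn4 at -1.24 (adjusted p = 0.000661), Ifitm6 at -0.97 (adjusted p = 0.000147) and Cxcr2 at -0.87 (adjusted p = 0.00914). The 2 higher in A/J were Fpr2, a formyl peptide receptor, at 0.42 and Hdc, the histamine-forming enzyme, at 0.49. In 129S1/SvlmJ, 3 of the 24 were lower (Itgb2, Trem3 and Ly6g) and 0 higher (6.43% and 3.54% of all genes). Cxcr2 was at -0.37 (adjusted p = 0.285) and Il1b at -0.35 (adjusted p = 0.203), and neither was called. In MRL/MpJ, 2 were higher and 0 lower (6.83% and 5.61% of all genes): Cxcr1, a second chemokine receptor, at 1.28 with 18 pairs called, and Padi4. In the 3 strains with no member called, the list was uneven: C3H/HeJ had 7 of the 24 higher and 1 lower, with Cxcr1 at 1.27, and KK/HlJ had 6 higher and 1 lower, with Cxcr1 at 1.07, while DBA/2J had 1 higher and 3 lower. Of all genes, 7.26% were called in either direction in C3H/HeJ, 7.38% in KK/HlJ and 4.81% in DBA/2J. C57L/J had 0 higher and 6 lower, C57BL/6J 3 higher and 2 lower, and BALB/cJ 0 higher and 2 lower. Of all genes, 3.69%, 4.06% and 2.48% were higher in these strains, and 4.11% were lower in C57BL/6J. The shares lower in C57L/J and BALB/cJ were not taken. Trem3, Ly6g and Padi4, Tff2 and Scgb3a2 above, and Cyp2f2, Ms4a4c, Csf1r, Gp9, Clec1b, Pecam1 and Cldn5 below, were named after their values were seen, to complete short counts.

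Markers of other cells moved with some of the same strains, and their part in the results above was not tested. Of all genes, 6.43% were lower and 3.54% higher in 129S1/SvlmJ, 3.75% and 1.96% in A/J, and 4.06% were higher in C57BL/6J. In either direction the share was 4.81% in DBA/2J, 7.38% in KK/HlJ and 7.26% in C3H/HeJ. In 129S1/SvlmJ, 6 of 11 airway secretory genes were lower and 0 higher, with Bpifa1 at -3.17, Reg3g at -2.37 and Scgb3a1 at -1.21, and the mean level of the list was 7.88 to 8.41 there against 8.25 to 9.72 in the other strains. In A/J, 5 of the 11 were higher (Reg3g, Bpifb1, Muc5b, Pigr and Cyp2f2) and 0 lower, and the list's level was 9.32 to 9.72, whereas Ltf was in the middle there. C57BL/6J had 4 of the 11 higher and 0 lower, DBA/2J 3 lower and KK/HlJ 4 lower. Monocyte genes were lower in 129S1/SvlmJ in 4 of 9 (Treml4, Cd14, Cx3cr1 and Ms4a4c; list level 7.28 to 7.42, others 7.40 to 7.88) and in A/J in 3 of 9 (Nr4a1, Cx3cr1 and Csf1r). Lymphocyte genes were lower in 129S1/SvlmJ in 4 of 7, among them Ncr1, a receptor of natural killer cells, at -1.04, and Ncr1 was at -0.97 in A/J. Of 8 platelet genes, 7 passed the F test and 6 were lower in 129S1/SvlmJ (Ppbp, Pf4, Itga2b, Itgb3, Gp9 and Clec1b). Ppbp, platelet basic protein, was at its lowest there (6.94). Platelet genes were also lower in C57L/J, in 5 of the 8, and higher in KK/HlJ, in 6 of the 8. The share of all genes lower in C57L/J was not taken. None of 6 erythroid genes passed the F test, and Alas2, the red-cell haem enzyme, differed by -0.79 in 129S1/SvlmJ (adjusted p = 0.536). All 12 alveolar macrophage genes passed, with 9 lower and 0 higher in BALB/cJ, and 8 higher and 1 (Chil3) lower in A/J. This list also had 6 higher and 1 lower in C3H/HeJ, and 6 higher and 0 lower in KK/HlJ. For BALB/cJ the share of all genes lower was not taken. The F test was passed by 2 of 10 genes of eosinophils, basophils and mast cells (20%, Kit and Ccr3). It was passed by 2 of 7 epithelial acute phase genes (28.6%, Steap4 and Saa3) and 4 of 7 lymphocyte genes (57.1%). Further counts were 8 of 9 monocyte genes (88.9%), 9 of 11 airway secretory genes (81.8%) and 4 of 8 lung tissue genes (50%). Of skeletal muscle genes 0 of 8 and of Y-linked genes 0 of 7 passed, beside 28.9% of all genes. Lung epithelial and endothelial markers were bright in every strain, with a list level of 11.39 to 11.66. In 129S1/SvlmJ, the endothelial genes Pecam1 (-0.20, adjusted p = 0.00948) and Cldn5 (-0.23, adjusted p = 0.00464) were lower and Hopx, a gene of alveolar type I cells, was higher (0.47, adjusted p = 0.00461). Of the 8 skeletal muscle genes, 5 were higher in C3H/HeJ, the strain of the array described above. No source used here says whether the lungs were cleared of blood.

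Among 9 transcription factors of myeloid development, 4 passed the F test (Cebpb, Cebpd, Spi1, which encodes PU.1, and Irf8) with 0 pairs called. That is a share of 44.4% beside 28.9% of all genes. Spi1 and Irf8 had their lowest mean in 129S1/SvlmJ, and Irf8 was called there at -0.40 (adjusted p = 0.00073). Of 11 attractants and growth factors 3 (27.3%) passed: Il1a, with 8 pairs called and its lowest mean in A/J, Cxcl15, the lung chemokine lungkine, and Cxcl12. Of the other S100 genes, 7 of 13 (53.8%) passed, with 0 pairs for S100a1, S100a11, S100a14 and S100g. Of 9 metalloproteinase genes near Mmp8, 3 (33.3%) passed, near the 28.9% of all genes. Most pairs were called for Mmp3 (10 pairs, lowest in KK/HlJ) and Mmp12 (8 pairs, lowest in C3H/HeJ). Mmp8 itself had its highest mean in KK/HlJ.

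The adenoma classes were compared with the strain as the unit, on the 9 strain means. With limma, 0 of 8 members were called for severity, frequency or both together, where 0.00988%, 0% and 0% of all genes were called. At an unadjusted p under 0.05 there was 1 of 8 members for severity, S100a9, and 0 for the other 2 comparisons, beside 7.04%, 7.7% and 7.87% of all genes. S100a9 averaged 6.19 over the 7 strains of increased severity and 6.79 over KK/HlJ (6.54) and MRL/MpJ (7.04), a difference of -0.60 ± 0.27 (SE; unadjusted p = 0.0496, adjusted p = 0.704). BALB/cJ and C57L/J, both of increased severity, had means of 6.55 and 6.53, so the classes overlapped. Lcn2 went the other way, by 0.31 ± 0.23, with KK/HlJ at 10.10 and MRL/MpJ at 9.40. For frequency the largest difference was S100a9 at -0.37 ± 0.26 (adjusted p = 0.716), and between the 3 strains increased in both and the 2 decreased in both it was S100a9 at -0.71 ± 0.30 (adjusted p = 0.631). The strains low for S100a9, A/J (5.51) and 129S1/SvlmJ (5.78), fall in different frequency classes but are both of increased severity. These comparisons rest on 9 strains, or 5 for both classes together, and a difference of the size of these standard errors could not be told from 0.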

How the data were processed

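Lung RNA was labelled and hybridised to 27 arrays, 1 mouse each. The authors deposited 1 table of log2 signals, made with affy per the submitters' processing notes. Its version, the normalisation and the genome build are not given in the sources used here. Precision is limited by the number of arrays. Of 21225 probe sets, 20239 had 1 gene name and 986 without one were left out; 0 columns were unused. In R 4.3.3, limma 3.58.1 fitted 1 mean per strain to all named genes, with the F test, 36 pairs, each strain against the other 8, and adenoma classes on strain means, adjusted by Benjamini-Hochberg over all named genes. A pair call needed an adjusted p under 0.05 and a log2 difference of at least 1. The fits were first checked on simulated data.

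The members and the 19 gene lists were chosen with earlier results of these data known. Named genes are the 8 members, up to 4 genes per list with the smallest F test p, list genes with 3 or more pairs called, the 5 genes most correlated with each member and the 10 most correlated with their mean. Alternatives were quantile or median scaling, array weights, an intensity trend, no dim probe sets, other thresholds, a replicate block, and leaving out each array or strain. Some list genes had no name in the annotation used and were not analysed here.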

Additional observations from a re-analysis of the deposited data

Results flagged for a closer look

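Among 16 sets of strain means (8 members in the 7 strains of increased severity and in the 6 of decreased frequency), 1 held a strain that stood apart from the rest by Dixon's test, and chance gives about 1 in 20. It was Camp in C57L/J, with a mean of 5.02 where the other 6 strains of increased severity lay between 5.27 and 5.44. The 3 C57L/J mice read 4.82, 5.35 and 4.90.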

How the results depend on the processing

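Of 782 recomputed member F tests and strain differences, 23 crossed the threshold and 0 changed direction. The 35 pair calls became 69 with no minimum log2 difference and 67 with a minimum of 0.5, which admit smaller differences. The median correlation over strain means fell from 0.404 to 0.24 without 129S1/SvlmJ. That within strains fell from 0.387 to 0.163 without BALB/cJ and 0.293 without DBA/2J (chosen after seeing the data). Leaving out single arrays gave 6 to 8 members past the F test, 27 to 39 pair calls and 13 to 20 strain calls. Camp passed the F test (adjusted p 0.0604) without 1 of 5 arrays (down to 0.0134), with array weights, with an intensity trend and with the replicate block. With the intensity trend Ngp lost its F test call (0.0553) and its C57BL/6J call (0.0631). Replicate numbers did not pair the mice (24 of 108 same-numbered pairs correlated above 0.1), and the replicate block gave 8 members past the F test, 35 pair calls and 15 strain calls. The 0 calls for adenoma classes held in every setting. Camp, Mmp8 and Ngp had the lowest mean signals of the 8 (5.32, 5.16 and 5.74), which limits what their small differences show.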
